A study of Rattus norvegicus with 9 samples.

Results

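Ion channels set the membrane potential, the calcium entry and the acid balance of microglia, the resident macrophages of the retina. Described here are 8 channel genes chosen by name, which encode potassium, proton and transient receptor potential (TRP) channels: Kcnk13, Kcnk6, Kcna3, Kcnj2, Kcnn4, Hvcn1, Trpv2 and Trpm2. By gene symbol, 7 of the 8 were matched to the 28343 genes of the count table, and Kcna3 was not analysed here. Of these 7, 6 had enough counts to be tested among 11748 genes, and Kcnk6 did not. The libraries came from CD11b-positive cells sorted from papain-digested retinas of Dark Agouti rats. All 9 rats were injected after 12 hours of fasting, and the labels of both groups give 8 to 10 weeks as the age at which diabetes was induced. The 4 diabetic libraries (numbered 1, 2, 4 and 5) were from rats given streptozotocin, 55 mg/kg, a toxin of the insulin-producing beta cells. The 5 control libraries (1, 3, 4, 5 and 6) were from rats given citrate buffer. Retinas were taken 4 weeks after injection, and diabetic rats were given insulin, 2 units, when blood glucose passed 30 mmol/l. The model lacks insulin, and CD11b is carried by other myeloid cells as well as microglia. The comparison asks whether the channel transcripts of sorted retinal microglia differ early in diabetes.

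Microglia at rest keep a negative membrane potential through the two-pore channel THIK-1, the product of Kcnk13, which is opened downstream of the ADP receptor P2Y12 and is tied to process movement. Potassium leaving through this and other channels is a known trigger of the NLRP3 inflammasome, the complex that matures interleukin 1 beta. The inward rectifier Kir2.1, the voltage-gated channel Kv1.3 and the calcium-activated channel KCa3.1 are potassium channels reported in activated microglia. The proton channel Hv1 lets out the acid and the charge that the phagocyte NADPH oxidase leaves in the cell, and TRPM2 and TRPV2 admit cations, TRPM2 when ADP-ribose builds up under oxidative stress.

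Total counts were 9156591 to 11332823 in control libraries and 6228756 to 9629829 in diabetic libraries, with diabetic 4 the lowest. The microglia markers, 14 of 14 tested and none at 0, held 3.01% to 4.13% of counts in control libraries and 3.66% to 3.96% in diabetic libraries. The 8 border macrophage markers with a row, of which Cd209b was at 0, held 0.0333% to 0.0789% in control and 0.0685% to 0.152% in diabetic libraries. The 16 inner retinal neuron markers, of which Pou4f1 was at 0, held 0.00845% to 0.0192% in control and 0.0127% to 0.0400% in diabetic libraries. Photoreceptor markers held 0.0245% to 0.133% and 0.0378% to 0.197%, Muller glia and astrocyte markers 1.06% to 1.76% and 1.29% to 1.40%, and vascular cell markers 0.0133% to 0.0320% and 0.0120% to 0.0184%, in control and diabetic libraries respectively. Apoe, which macrophages also express, made up 81.2% to 86.1% of the Muller glia and astrocyte counts. The 6 monocyte markers with a row held 0.00161% to 0.00230% in control and 0.00236% to 0.00409% in diabetic libraries, above every control in all 4. The 10 neutrophil markers held 0.0274% to 0.0393% and 0.0319% to 0.0374%. Csf3r had 26393 of the counts on this list, and S100a9, the next, 1125. Mean Csf3r was 329 CPM in control and 288 in diabetic libraries. S100a8, Cxcr2, Mmp8 and Retnlg, named after their values were seen, had control means of 0.239, 0.765, 0.932 and 0.341 CPM. Their diabetic means were 5.11, 2.93, 4.57 and 1.54. Camp, Elane and Ngp had 14, 4 and 9 counts in all. S100a9, also named after its values were seen, was at 0.214 to 5.57 CPM in control and 14.8 to 52.9 in diabetic libraries. The monocyte marker Ccr2, the neutrophil marker Mpo and the lymphocyte markers Cd3d, Cd3g and Ms4a1 were at 0 in all libraries. Within the controls, libraries 4 and 6 stood apart on a list of 17 genes that respond to dissociation and sorting, such as Fos and Egr1. The list held 2.21% and 2.73% of their counts against 0.411% to 0.946% in the other control libraries. Of its heat shock genes, Hspa1b had 17222 counts in all, and Hspa1a, Hspa8 and Hsp90aa1 had 57, 26 and 20. Il1b, which encodes interleukin 1 beta, was at 2668 and 6383 CPM in control 4 and control 6, and the highest of the other 7 libraries was diabetic 5 at 459.5. On the list of 17 genes the diabetic libraries had 1.23% to 1.95% of counts, above control 1, 3 and 5 and below control 4 and 6. Leaving out control 4 and 6 therefore sets the diabetic libraries against controls that are all lower on this list. CPM, the share of a library's counts scaled to a fixed depth, uses TMM (trimmed mean of M-values) factors here and below.

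None of the 6 channel genes tested passed an adjusted p of 0.05 between diabetic and control libraries (edgeR quasi-likelihood test, Benjamini-Hochberg adjustment over all genes). Across all 11748 genes, 0.0681% did, 0.0426% higher and 0.0255% lower in diabetic libraries. At an unadjusted p of 0.05, 1 of the 6 channel genes, Trpv2, was lower, where 10% of all genes were lower and 18.9% passed in either direction. No channel gene had groups that did not overlap, against 8.44% of all genes (4.27% higher and 4.16% lower in diabetic libraries). At an adjusted p of 0.1 the count of channel genes was also 0, against 1.9% of all genes. DESeq2 and limma-voom each called 0 channel genes. A lower count in sorted cells can come from fewer cells of a type or from less RNA per cell, and these cannot be told apart in bulk libraries. The labels give 5 control and 4 diabetic rats, and p-values measure the spread between these libraries.

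**Figure D1:**
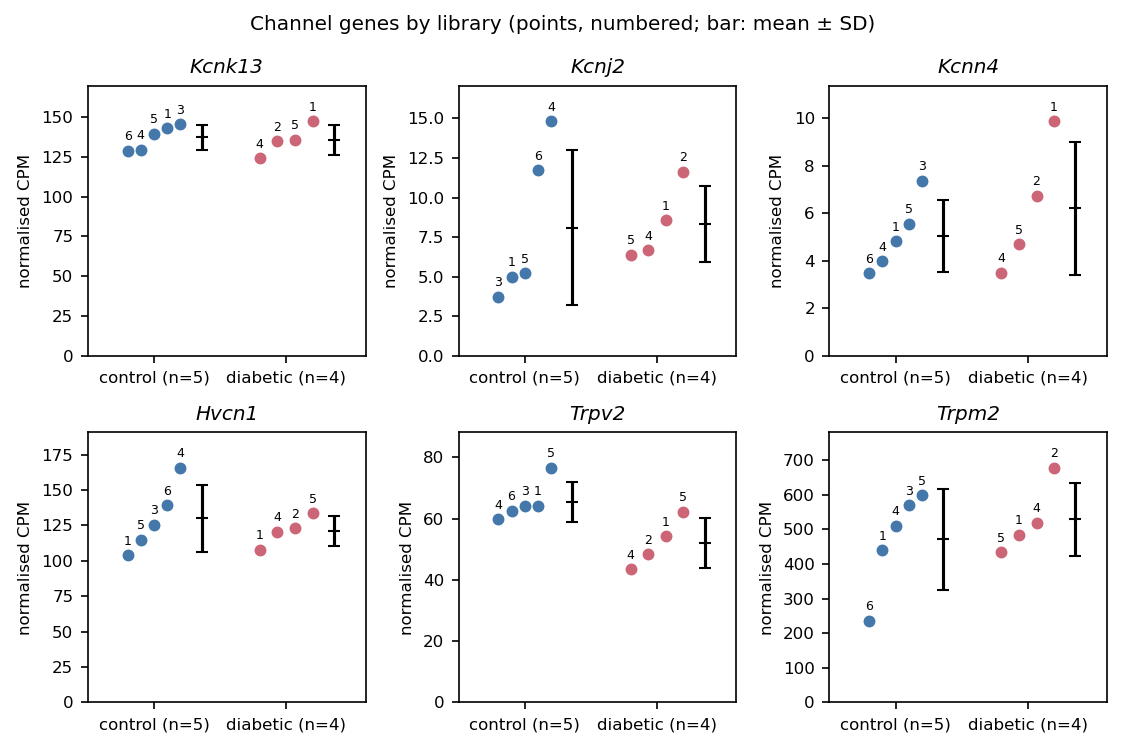
Normalised CPM (y axis, linear, from 0) of the 6 tested channel genes in each of the 5 control and 4 diabetic libraries, 1 panel per gene with its own scale. Points are libraries labelled by replicate number and set out by value, the tick beside them is the group mean and the bar 1 SD; every panel shows overlapping groups, and in the Trpv2 panel 3 of 4 diabetic points lie below all control points.

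Kcnk13 (ENSRNOG00000047363, on Rnor6 at chr6:123974798-124077197, plus strand, 2 exons) was the steadiest of the channel genes. Its normalised CPM was 143, 145, 129, 139 and 129 in control 1, 3, 4, 5 and 6. It was 147, 135, 124 and 136 in diabetic 1, 2, 4 and 5. The groups overlapped, and the highest and the lowest value were both diabetic. The means were 137 ± 7.73 (SD, n = 5) and 136 ± 9.48 (SD, n = 4), and the coefficient of variation over all 9 libraries was 5.88%, against a median of 19.8% over all genes tested. The log2 fold change, diabetic minus control here and below, was -0.018 ± 0.086 (SE; edgeR quasi-likelihood adjusted p = 0.925, Benjamini-Hochberg). Its 95% interval covers a diabetic level of 0.867 to 1.12 times the control level, from 780 to 1678 counts per library. In RefSeq's annotation LOC120103599 overlaps Kcnk13. In the transcript assemblies described below, 43.7% to 100% of the TPM over Kcnk13 exons was assigned to the opposite strand. The part of other transcripts in the Kcnk13 counts was not tested. Kcnk6, which encodes the two-pore channel TWIK-2, had 1 count in each of control 1, 3 and 4 and 0 elsewhere. The 34470805 counts of the diabetic libraries with 0 for Kcnk6 allow a level of up to 0.0870 CPM over the group, which covers counting error only, and no fold is given.

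The RefSeq promoter of Kcnk13 is shown with that of Kcnj2, since these were the channel genes of lowest and highest variation between libraries. Each spans 300 bases around the annotated start, most of them before it, on the GRCr8 build. The Kcnk13 promoter lies at chr6:124971559-124971858 and the Kcnj2 promoter at chr10:96559975-96560274, both on the plus strand. The capitals mark the only match to the letters GAGGAAGT, a box bound by PU.1, the myeloid transcription factor, searched on both strands. 
Kcnk13: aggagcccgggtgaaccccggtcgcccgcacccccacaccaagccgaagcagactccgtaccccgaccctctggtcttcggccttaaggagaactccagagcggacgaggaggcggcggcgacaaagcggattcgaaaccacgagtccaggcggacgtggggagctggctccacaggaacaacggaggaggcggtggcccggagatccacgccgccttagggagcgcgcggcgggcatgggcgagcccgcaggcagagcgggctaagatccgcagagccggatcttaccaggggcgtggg
Kcnj2: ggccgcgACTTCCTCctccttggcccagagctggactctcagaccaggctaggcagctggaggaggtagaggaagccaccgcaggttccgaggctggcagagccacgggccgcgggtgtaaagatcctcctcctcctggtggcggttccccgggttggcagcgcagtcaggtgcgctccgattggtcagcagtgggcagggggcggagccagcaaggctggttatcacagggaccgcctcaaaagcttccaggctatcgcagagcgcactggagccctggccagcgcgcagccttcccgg
Of the 8 channel genes, 5 (Kcna3, Kcnk13, Trpv2, Kcnj2 and Trpm2) had a promoter entry, and GAGGAAGT was found in that of Kcnj2 alone, on the minus strand and 236 bases before the start. It was found in 2.42% of all 33469 promoters of the same length. The letters TGANTCA, the site of AP-1 factors such as Fos and Jun, were in none of the 5 and in 7.33% of all promoters, and TGACGTCA, the cAMP response element, was in none of the 5 and in 1.83% of all. The guanine and cytosine content was 69% for Kcnk13 and 67% for Kcnj2. A match here is a match of letters, not a measured site.

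Kcnj2 (ENSRNOG00000004720, chr10:99437436-99439114 on Rnor6, plus strand, the single reference exon) varied most of the 6 tested. Its normalised CPM was 5.00, 3.73, 14.8, 5.24 and 11.7 in control 1, 3, 4, 5 and 6. It was 8.59 in diabetic 1, 11.6 in diabetic 2, 6.69 in diabetic 4 and 6.40 in diabetic 5. All 4 diabetic values lay between the low control libraries 1, 3 and 5 and the highest control library, 4. The means were 8.11 ± 4.88 (SD, n = 5) for control and 8.33 ± 2.41 (SD, n = 4) for diabetic libraries, and the coefficient of variation was 45.8% over all libraries. The log2 fold change was 0.053 ± 0.40 (SE; edgeR quasi-likelihood adjusted p = 0.955, Benjamini-Hochberg), with a 95% interval of 0.562 to 1.92 times the control level from 42 to 138 counts per library. Without control 4 and control 6 together the log2 fold change was 0.84 (unadjusted p = 0.0109, adjusted p = 0.207 by the same edgeR test). The control libraries 1, 3 and 5, which then remain, were all below the diabetic libraries on the dissociation response genes. With the mean of a list of dissociation response genes as a covariate, the log2 fold change of Kcnj2 was 0.10 (edgeR adjusted p = 0.809).

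The level of Kcnj2 went with the isolation response list across libraries. The list was averaged with equal weight per gene, also for Hspa1a, Hspa8 and Hsp90aa1, which had few counts. The mean log2 CPM of that list was 6.32, 5.22, 8.13, 6.42 and 8.40 in control 1, 3, 4, 5 and 6, and 7.13, 7.22, 6.49 and 7.63 in diabetic 1, 2, 4 and 5. Against it, the log2 CPM of Kcnj2 had a Pearson r of 0.87 and a Spearman rho of 0.88 over the 9 libraries (two-sided exact permutation p = 0.00243 and 0.00308). Adjusted over the 6 channel genes examined, these exact p-values were 0.0146 and 0.0185. Without the libraries farthest from the median of the list, control 3 and control 6, r was 0.79 over 7 libraries. With 5 and 4 libraries a group, no r within a group is given. The relation was examined after the values had been seen, and control 4 and 6 also have the lowest TMM factors. For the other 5 genes no relation passed: Hvcn1 had r = 0.60 and rho = 0.68 (exact permutation p = 0.0861 and 0.0503, adjusted 0.217 and 0.151). With control 3 and control 6 left out, r was 0.84 for Hvcn1. For Trpm2 r was -0.55, for Kcnk13 -0.53, for Kcnn4 -0.42 and for Trpv2 -0.097 (exact permutation p = 0.124, 0.145, 0.256 and 0.809, adjusted 0.217, 0.217, 0.307 and 0.809). Their rho was -0.45, -0.58, -0.55 and -0.38 (exact permutation p = 0.230, 0.108, 0.133 and 0.313, adjusted 0.276, 0.199, 0.199 and 0.313). Without control 3 and control 6, r came to -0.079, -0.22, -0.015 and -0.069 for these genes in the same order.

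**Figure D2:**
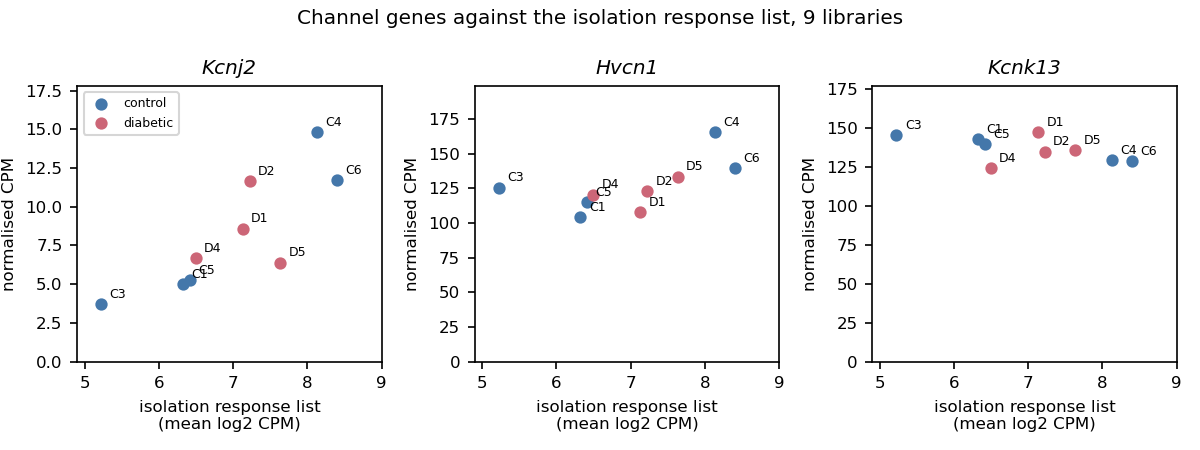
Normalised CPM of Kcnj2, Hvcn1 and Kcnk13 (y axis, linear, from 0) against the mean log2 CPM of the isolation response list (x axis), 1 point per library, 5 control and 4 diabetic, labelled by replicate number. For Kcnj2 (r = 0.87, n = 9) control 4 and control 6 sit at the upper right and control 3 at the lower left, with the diabetic libraries between.

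Kcnn4, which encodes the calcium-activated channel KCa3.1, was low in every library. Its normalised CPM was 4.81, 7.37, 3.98, 5.56 and 3.48 in control 1, 3, 4, 5 and 6. Diabetic values were 9.87 in library 1, 6.73 in 2, 3.50 in 4 and 4.70 in 5. The groups overlapped over nearly their whole range, with only diabetic 1 above all control libraries. The log2 fold change of Kcnn4 was 0.30 ± 0.32 (SE; edgeR quasi-likelihood adjusted p = 0.616, Benjamini-Hochberg), from means of 5.04 ± 1.53 (SD, n = 5) and 6.20 ± 2.79 (SD, n = 4). With 22 to 100 counts per library, the 95% interval runs from 0.762 to 2.00 times the control level. Leaving out diabetic 1 brought the log2 fold change to -0.013, and leaving out control 4 and 6 brought it to 0.072. With the isolation response list as a covariate it was 0.42 (edgeR adjusted p = 0.366).

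Hvcn1 (ENSRNOG00000001270, chr12:39822637-39850567 on Rnor6, minus strand, 7 exons) encodes the proton channel Hv1. Its normalised CPM was 104, 126, 166, 115 and 139 in control 1, 3, 4, 5 and 6. In diabetic libraries it was 108 in library 1, 123 in 2, 121 in 4 and 134 in 5. The 4 diabetic values lay inside the control range. The means were 130.0 ± 23.9 (SD, n = 5) and 121 ± 10.5 (SD, n = 4), with a log2 fold change of -0.10 ± 0.13 (SE; edgeR quasi-likelihood adjusted p = 0.691, Benjamini-Hochberg) and a 95% interval of 0.765 to 1.14 times the control level. Without control 4 the log2 fold change of Hvcn1 was 0.0021. In RefSeq's annotation Tctn1 overlaps Hvcn1, and the strand setting of the counting is not given in the sources used here, so reads of these genes may not be told apart.

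Trpv2 (ENSRNOG00000003104, chr10:48903540-48925030 on Rnor6, plus strand, 15 exons) encodes a calcium-permeable cation channel of macrophages. It had the lowest p of the 6 channel genes. Its normalised CPM was 64.2, 64.2, 59.7, 76.6 and 62.5 in control 1, 3, 4, 5 and 6. Diabetic values were 54.3 in library 1, 48.4 in 2, 43.5 in 4 and 62.2 in 5. Diabetic 1, 2 and 4 lay below all control libraries and diabetic 5 within their range. The means were 65.4 ± 6.49 (SD, n = 5) and 52.1 ± 8.06 (SD, n = 4). The log2 fold change was -0.33 ± 0.12 (SE), with a 95% interval of 0.663 to 0.958 times the control level. Its unadjusted p was 0.0196 and its adjusted p was 0.188 in the edgeR quasi-likelihood test (Benjamini-Hochberg), so it did not pass the threshold. The value kept its sign in all 18 alternative settings, which reuse the same libraries, from -0.43 to -0.22, with adjusted p from 0.0958 to 0.510. The unadjusted edgeR p rose above 0.05 with upper-quartile factors (0.0624) and without factors (0.172). It also did so without control 5 (0.0524), diabetic 2 (0.0548) or diabetic 4 (0.0639). Diabetic 1, 4 and 5 had a higher share of border macrophage markers, and all 4 diabetic libraries a higher share of monocyte markers and a higher S100a9 level, than every control library. The part of such cells in the Trpv2 value was not tested. RefSeq's annotation places the small nucleolar RNA genes Snord49a, Snord49b and Snord65 within Trpv2, and LOC120095326 overlaps it.

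Trpm2 (ENSRNOG00000001216, chr20:11436267-11482051 on Rnor6, plus strand, 32 exons) encodes the oxidant-gated cation channel and had the highest counts of the 7 measured. Its normalised CPM was 441, 569.7, 511, 599.7 and 236 in control 1, 3, 4, 5 and 6. Diabetic values were 485 in library 1, 679 in 2, 519 in 4 and 434 in 5. Control 6 was the lowest and diabetic 2 the highest library, and the others overlapped. The means were 471 ± 145 (SD, n = 5) and 529 ± 106 (SD, n = 4), with a log2 fold change of 0.17 ± 0.25 (SE; edgeR quasi-likelihood adjusted p = 0.739, Benjamini-Hochberg) and a 95% interval of 0.758 to 1.66 times the control level. Without control 6 the Trpm2 fold change was -0.0029 on the log2 scale. LOC120099063 and LOC120099065 overlap Trpm2 in RefSeq's annotation.

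**Figure D3:**
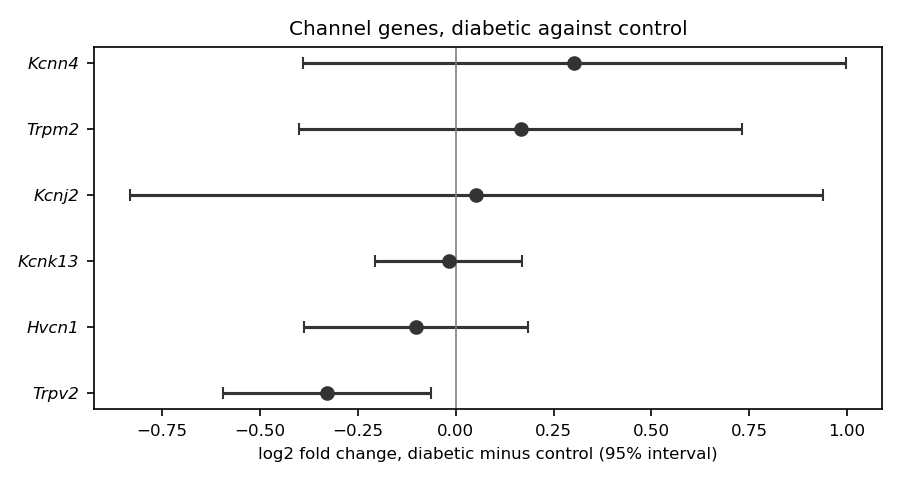
Log2 fold change, diabetic minus control (x axis), of the 6 tested channel genes (y axis). Points are the edgeR estimates and bars their 95% intervals; the Trpv2 interval alone lies wholly below 0, from -0.59 to -0.062, and the widest is that of Kcnj2, from -0.83 to 0.94.

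In the authors' deposited table, in which 2.1% of 12069 genes have an adjusted p below 0.05, none of the 6 channel genes does. The authors' deposited table gives log2 fold changes of 0.094 for Kcnk13, 0.21 for Kcnj2, 0.41 for Kcnn4, 0.026 for Hvcn1, -0.22 for Trpv2 and 0.26 for Trpm2. Adjusted p in the authors' deposited table ran from 0.605 (Trpv2) to 0.962 (Hvcn1). The values for Kcnk13 and Hvcn1 have the opposite sign to those above. Without normalization factors the edgeR fit gave 0.094 and 0.025 for these genes, and the median log2 fold change over all genes then moved from 0.0018 to 0.12.

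Levels of different genes can be compared only per length. TPM, a measure of transcript abundance corrected for length, of the deposited transcript assemblies was stacked over each gene's reference exons, both strands together, and averaged per base. On this scale the mean level was 66.6 ± 24.4 TPM for Trpm2 in control (SD, n = 5) and 78.6 ± 14.4 in diabetic libraries (SD, n = 4). It was 69.4 ± 6.44 and 66.1 ± 8.31 for Hvcn1, 38.4 ± 14.1 and 44.2 ± 14.1 for Kcnk13, and 14.9 ± 2.71 and 12.6 ± 2.98 for Trpv2. With both strands summed, Trpm2 was above Hvcn1 in 5 of 9 libraries, and the order Hvcn1, Kcnk13, Trpv2, Kcnj2 held in 9 of 9. The order depended on the strand that the assembly assigned to each transcript, which was not checked in the reads. On the gene's own strand alone, Trpm2 was above Hvcn1 in 8 of 9 libraries and Kcnk13 above Trpv2 in 6 of 9, while Hvcn1 stayed above Kcnk13 and Trpv2 above Kcnj2 in 9 of 9. Kcnj2 was listed at 0 in 6 of 9 libraries and at 2.92 in control 4, 0.977 in diabetic 1 and 5.60 in diabetic 2, although its counts were 42 or more in all libraries. Transcripts assigned to the opposite strand held 10.5% to 14.9% of the summed TPM for Trpm2 and 40.3% to 53.5% for Hvcn1. They held 43.7% to 100% for Kcnk13 and 21.7% to 35.4% for Trpv2. For Kcnk13 the part on the gene's own strand was 0 in control 3 and diabetic 4. No level per length is given for Kcnk6, Kcna3 and Kcnn4.

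**Figure D4:**
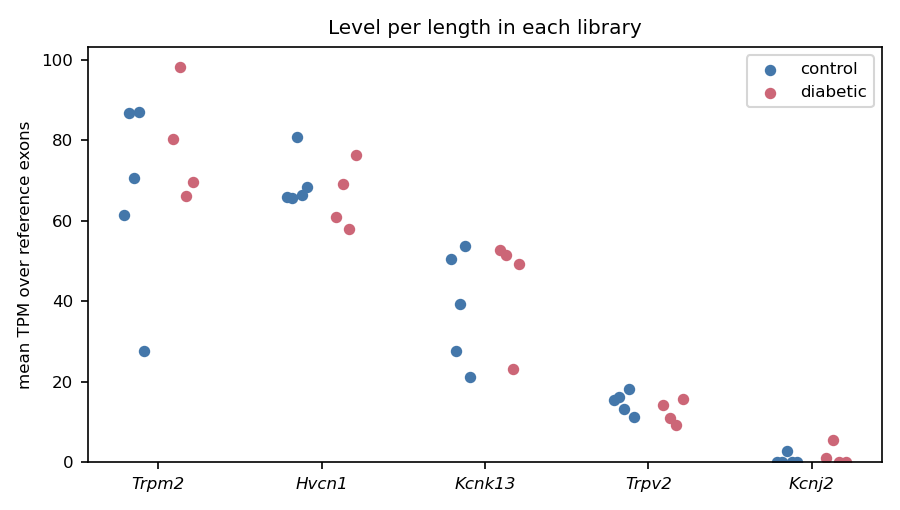
Mean TPM over the reference exons, both strands (y axis), of 5 channel genes in the 5 control and 4 diabetic libraries, 1 point per library, coloured by group. Trpm2 spans 27.6 to 98.2, Hvcn1 57.9 to 80.7, Kcnk13 21.1 to 53.6 and Trpv2 9.34 to 18.3.

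Genes with the most similar pattern to each channel gene were taken as the 3 with the highest Pearson r of log2 CPM over the 9 libraries, which share depth and scaling, and are given without a test. For Kcnj2 they were AABR07051515.2 (r = 0.96), the immediate early transcription factor gene Egr1 (r = 0.92) and the chemokine gene Ccl2 (r = 0.92). Egr1 is itself in the isolation response list. For Trpv2 they were Man1a1 (r = 0.96), Nploc4 (r = 0.96) and Usp46 (r = 0.95), and for Trpm2 Msantd4 (r = 0.94), Kif3b (r = 0.94) and Rassf9 (r = 0.91). For Hvcn1 they were the interleukin 1 receptor accessory gene Il1rap (r = 0.93), Hnrnpa2b1 (r = 0.93) and Crtc2 (r = 0.92). The closest were Zfp560 (r = 0.92), Sars (r = 0.91) and Ticam2 (r = 0.89) for Kcnk13, and Mif4gd (r = 0.88), MGC105567 (r = 0.87) and Znfx1 (r = 0.87) for Kcnn4.

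The wider channel families and the pathways they serve were described by 10 lists holding 178 entries, of which 94 were tested. None of the 94 passed an adjusted p of 0.05. At an unadjusted p of 0.05, 9 were higher and 8 lower, where 8.94% of all genes were higher and 10% lower. Groups did not overlap for 5 higher and 2 lower of the 94, where 4.27% of all genes were higher and 4.16% lower without overlap. Their median log2 fold change was -0.030, against 0.0018 over all genes. DESeq2 gave a p-value for 156 list genes and called 7 (Car2, Cyba, Kcng2, Kcnk3, Pycard, Trpm1 and Txnip). Over all genes it called 594 of 17805. With limma-voom 0 of the 94 were called, and 4 of all 11748 genes.

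Among potassium channels, 4 of 14 two-pore genes were tested, with a median log2 fold change of 0.053. At the unadjusted threshold 1 of these 4 passed, where 18.9% of all genes did. The gene was Kcnk3, which encodes the acid-sensitive channel TASK-1. Kcnk3 was at 1.04, 0.954, 1.18, 0.535 and 0.515 CPM in control 1, 3, 4, 5 and 6, and at 5.53, 4.49, 2.39 and 1.40 CPM in diabetic 1, 2, 4 and 5. All 4 diabetic values lay above all control values, on 4 to 11 counts in control and 14 to 56 in diabetic libraries. The log2 fold change of Kcnk3 was 2.01 ± 0.45 (SE; edgeR quasi-likelihood adjusted p = 0.0895, Benjamini-Hochberg). Of 52 voltage-gated genes and auxiliary subunits 17 were tested, 15 with a positive and 2 with a negative fold change and a median of 0.52. Kcna5, the Kv1.5 gene, had a mean CPM of 6.57 ± 1.65 (SD, n = 5) for control and 10.2 ± 2.19 (SD, n = 4) for diabetic libraries (log2 fold change 0.63, edgeR adjusted p = 0.174). Kcng2, a silent modifier subunit, was at 50.6 ± 5.06 and 38.9 ± 3.31 CPM (log2 fold change -0.38, edgeR adjusted p = 0.123), with all 4 diabetic libraries below all control libraries. The inner retinal neuron markers were at 0.0400%, 0.0263%, 0.0199% and 0.0127% of counts in diabetic 1, 2, 4 and 5, the same order as Kcnk3. In control 1, 3, 4, 5 and 6 they were at 0.0192%, 0.00845%, 0.0110%, 0.0129% and 0.0126%, not the order of Kcnk3. Diabetic 5 was within this control range, with Kcnk3 above all controls. The part of the inner retinal neuron markers in the values of these potassium channels was not tested.

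No inward rectifier gene (6 of 15 tested, median -0.071) and no calcium- or sodium-activated gene (3 of 12 tested, median 0.31) had an unadjusted p below 0.05. The most abundant inward rectifiers by mean CPM were Kcnj5, at 252 ± 45.1 (SD, n = 5) and 219.9 ± 17.4 (SD, n = 4), and Kcnj14, which spanned 6.85 to 19.8 and 8.00 to 23.1. Their edgeR adjusted p-values were 0.409 and 0.947. The large-conductance channel gene Kcnma1 spanned 1.13 to 8.78 CPM over the control libraries and 0.900 to 12.1 over the diabetic ones, and the sodium-activated Kcnt2 spanned 1.04 to 3.32 and 2.27 to 3.06. Kcnma1 and Kcnt2 had edgeR adjusted p-values of 0.648 and 0.670.

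Of 28 TRP channel genes 13 were tested, 3 with a positive and 10 with a negative fold change and a median of -0.21. Besides Trpv2, Pkd2 and Trpm1 had an unadjusted p below 0.05, where 18.9% of all genes did. Pkd2, the polycystin-2 gene, had a mean CPM of 36.2 ± 7.63 (SD, n = 5) for control and 27.6 ± 3.33 (SD, n = 4) for diabetic libraries (log2 fold change -0.39, edgeR adjusted p = 0.249). Trpm1, the channel of retinal ON bipolar cells, was at 11.5 ± 4.03 and 27.2 ± 14.9 CPM (log2 fold change 1.25, edgeR adjusted p = 0.132). It ran from 12.8 CPM in diabetic 5 to 48.1 in diabetic 1, and it is one of the inner retinal neuron markers, whose part in its value was not tested. Without diabetic 1 the log2 fold change of Trpm1 was 0.81.

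**Figure D5:**
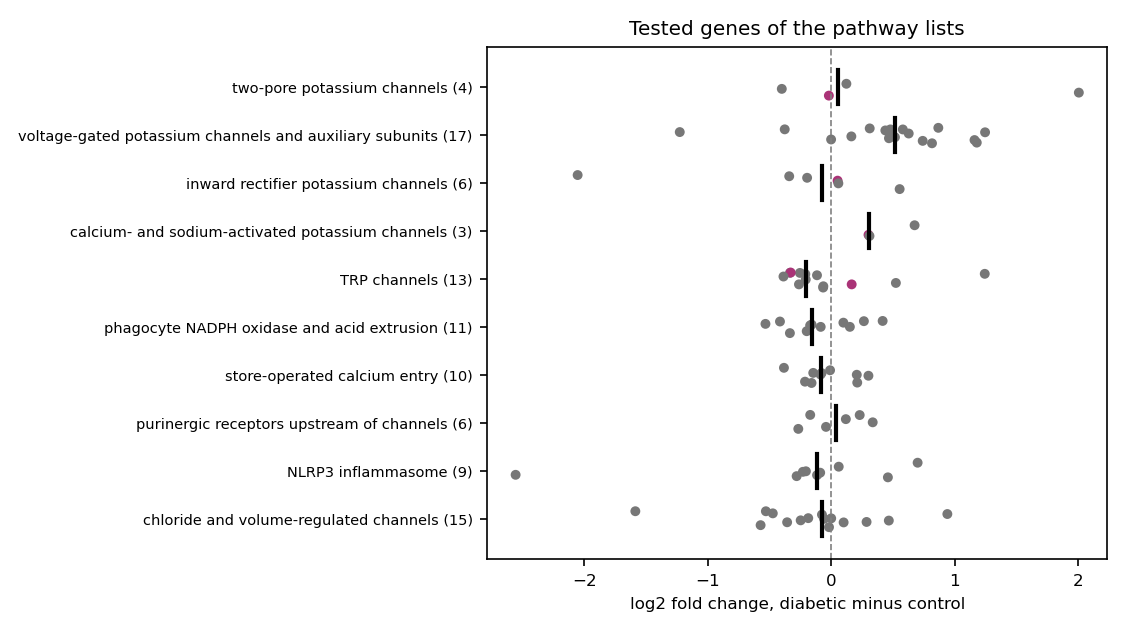
Log2 fold change, diabetic minus control (x axis), of every tested gene of the 10 lists (y axis, 1 list per line). Points are genes (coloured for the channel genes described above), the black bar is the list median and the dashed line the median of all genes; the medians run from -0.21 for TRP channels to 0.52 for voltage-gated channels, and no gene passed an adjusted p of 0.05.

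None of the genes tested in the systems that the channels serve passed an adjusted p of 0.05. All 11 genes of the NADPH oxidase and acid extrusion list were tested (median -0.16). Cyba, the p22phox subunit, had a mean CPM of 280.4 ± 28.8 (SD, n = 5) for control and 375 ± 60.0 (SD, n = 4) for diabetic libraries, with all 4 diabetic above all control libraries (log2 fold change 0.42, edgeR adjusted p = 0.115). Cybb, the catalytic subunit whose charge Hv1 balances, was at 863 ± 77.0 and 773 ± 75.0 CPM (edgeR adjusted p = 0.375). The cytosolic subunit gene Ncf4 was at 73.4 ± 8.10 and 88.3 ± 9.45 CPM, and Car2, a carbonic anhydrase, at 132 ± 22.3 and 91.2 ± 9.54 CPM (edgeR adjusted p = 0.231 and 0.0991). Of the purinergic receptors (6 of 8 tested, median 0.039) P2ry12, upstream of THIK-1, was at 1647 ± 231 and 1600.2 ± 127 CPM, P2ry13 at 318 ± 74.7 and 265 ± 23.0, and the ATP-gated P2rx7 at 59.3 ± 7.85 and 64.4 ± 8.62. Their edgeR adjusted p-values were 0.859, 0.367 and 0.617. Without control 4 and 6 the log2 fold change of P2ry13 was -0.48 against -0.27 with them (edgeR adjusted p = 0.132). The remaining controls were all below the diabetic libraries on the isolation response list. With that list as a covariate the log2 fold change of P2ry13 was -0.19 (edgeR adjusted p = 0.282).

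Of the 9 NLRP3 inflammasome genes, all tested (median -0.11), 2 had an unadjusted p below 0.05, where 18.9% of all genes did. Txnip, the thioredoxin-interacting protein gene known to respond to glucose, was at 493, 526, 396, 483 and 346 CPM in control 1, 3, 4, 5 and 6. It was at 666, 732, 733 and 789 CPM in diabetic 1, 2, 4 and 5, all above the controls. Its log2 fold change was 0.70 (edgeR quasi-likelihood adjusted p = 0.0607). Pycard, the adaptor ASC, had a mean CPM of 171 ± 14.4 (SD, n = 5) and 236 ± 39.4 (SD, n = 4), again with no overlap (log2 fold change 0.46, edgeR adjusted p = 0.0991). Nlrp3 itself was at 445 ± 127 and 380.1 ± 59.5 CPM (edgeR adjusted p = 0.529). Il1b was at 1896 ± 2737 CPM in control and 322 ± 138 in diabetic libraries (log2 fold change -2.56 ± 1.49 SE, edgeR adjusted p = 0.377). Without control 4 and 6 the log2 fold change of Il1b was 1.16, against controls all below the diabetic libraries on the isolation response list. With that list as a covariate it was -1.26 (edgeR adjusted p = 0.0831). The border macrophage share, 0.0333% to 0.0789% in control and 0.0685% to 0.152% in diabetic libraries, was higher in diabetic 1, 4 and 5 than in every control. The monocyte share, 0.00161% to 0.00230% and 0.00236% to 0.00409%, and the neutrophil gene S100a9, 0.214 to 5.57 and 14.8 to 52.9 CPM, were higher in all 4 diabetic libraries than in every control. The monocyte marker Ccr2 and the neutrophil marker Mpo were at 0. Among other neutrophil markers, mean S100a8 was 0.239 CPM in control and 5.11 in diabetic libraries, and mean Csf3r was 329 and 288. The part of these cells in the values of Cyba, Txnip and Pycard was not tested.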

How the data were processed

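Libraries were made with Nextera XT from RNA preamplified with SmartSeq v4, per the labels' protocols. The labels give 1 flow cell and lane for all 9 libraries, so sequencing runs cannot be compared. The submitters' processing notes name bcl2fastq 2.18.0.12, TopHat2 2.0.14, StringTie 1.2.4, edgeR and the build Rnor_6.0. The authors deposited raw counts per gene symbol. Neither the counting program nor the strand setting is given in the sources used here. A table the authors deposited gives log2 fold changes, p-values and adjusted p-values for 12069 genes and names no tool. Transcript assemblies deposited by the authors carry TPM normalized within each library. They were made by StringTie on the Ensembl annotation of Rnor6, per the file headers. Assembled transcripts were stacked over the exons of reference transcripts. RefSeq symbols, overlaps and promoters are of GRCr8, and no coordinate was moved between builds.

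Genes were kept by filterByExpr at a minimum count of 10 and a minimum total of 15, leaving 11748 of 17822 genes with any count. TMM factors ran from 0.839 (control 6) to 1.03 in control and from 1.01 to 1.07 in diabetic libraries. The test was the edgeR 4.0.16 quasi-likelihood F test (robust, no covariate) in R 4.3.3 on all 9 libraries, with Benjamini-Hochberg adjustment and a threshold of 0.05. The SE is the size of the log2 fold change divided by the square root of F. The common biological coefficient of variation was 0.251. In a test on simulated data for this comparison, with 11823 genes tested, 200 of 200 genes changed 4-fold were called with 8 false calls. The changed genes were drawn from the more abundant ones, and every gene was given the same common dispersion. How often smaller changes, or changes in genes with few counts or a wider spread, would be called was not simulated. No 2 libraries agreed within sampling noise (chi-square per degree of freedom at least 11.7 over genes with at least 20 counts).

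The channel genes, lists and markers were chosen with earlier results of these data known. All 8 channel genes are named. From each list up to 4 genes of lowest p with an unadjusted p below 0.05 are named, or the 2 most abundant where none has one, and P2ry12, Cybb, P2rx7, Nlrp3 and Il1b are always named. Likeness was taken on log2 CPM (prior count 2) among tested genes with a mean CPM of at least 10. The 18 alternatives were DESeq2 1.42.0, limma-voom 3.58.1, upper-quartile, DESeq2-type or no scaling factors, no filter, a replicate block, the isolation response list as a covariate, control 4 and 6 left out, and each library left out in turn. Reads carry no molecular identifiers in the labels, so floors cover counting error only.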

Additional observations from a re-analysis of the deposited data

Results flagged for a closer look

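In 64 gene-by-group sets of 4 or 5 libraries, 4 held a library whose gap to the nearest other library was a larger part of the group's range than Dixon's 95% critical value, which chance gives in about 1 group in 20. Trpv2 in control 5 was at 76.6 CPM, with the other control libraries at 59.7 to 64.2. Without control 5 the log2 fold change of Trpv2 was -0.26 (edgeR unadjusted p = 0.0524). Pkd2, another TRP channel gene, was at 22.6 CPM in diabetic 4, with the other diabetic libraries at 29.2 to 29.4. Calm2, a calmodulin gene, was at 156 CPM in diabetic 4, with the others at 110.0 to 111. Clcn3, a chloride-proton exchanger gene, was at 92.0 CPM in diabetic 1, with the others at 112 to 113.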

How the results depend on the processing

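The number of channel genes called stayed at 0 in all 18 alternatives. The number of all genes called was 8 and moved to 594 with DESeq2, 4 with limma-voom, 31 with upper-quartile factors, 29 without factors, 42 without the filter, 1317 with the isolation covariate, 0 with the replicate block (1129 at an unadjusted p below 0.05) and 0 without control 4 and 6 (1776 at an unadjusted p below 0.05). Leaving out 1 library in turn gave 0 to 75, with 75 without control 1, 0 without control 4, diabetic 1 or diabetic 4, 1 without control 3 or control 5, and 2 without diabetic 2. Of the list genes 0 were called, against 7 with DESeq2 (Car2, Cyba, Kcng2, Kcnk3, Pycard, Trpm1 and Txnip), 13 with the isolation covariate, and 1 (Txnip) with upper-quartile factors, without the filter and without control 1, so that leaving out 1 library gave 0 to 1. Those called with the isolation covariate were Car2, Clcn3, Clic4, Cyba, Kcng2, Kcnk3, Lrrc8a, Lrrc8b, P2rx4, P2ry6, Pycard, Slc4a7 and Txnip. The causes were not tested.

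The sign turned for these log2 fold changes. With upper-quartile factors, which move the median of all genes to 0.077, Kcnk13 was 0.056 and P2ry12 0.031. Without factors, which move it to 0.12, Kcnk13 was 0.094, Hvcn1 0.025 and P2ry12 0.062, each below that median. With the replicate block, Kcnj2 was -0.025, Trpm2 -0.10, Kcnj14 -0.49 and P2rx7 -0.040. Without control 4 and 6, Hvcn1 was 0.068, Trpm2 -0.027, Kcnj14 -0.032, P2rx7 -0.0029, Nlrp3 0.068 and Il1b 1.16. Leaving out 1 library in turn gave -0.061 to 0.021 for Kcnk13, -0.15 to 0.39 for Kcnj2, -0.013 to 0.49 for Kcnn4, -0.17 to 0.0021 for Hvcn1, -0.0029 to 0.27 for Trpm2, -0.38 to 0.28 for Kcnj14, -0.090 to 1.41 for Kcnma1 and -0.10 to 0.018 for P2ry12. Labels give the numbers 1, 4 and 5 in both groups and state no pairing. Deviations of same-numbered libraries correlated at 0.20, -0.11 and 0.016. Whether same-numbered rats were handled together cannot be told from these values. Counts per library were 22 to 100 for Kcnn4, 42 to 138 for Kcnj2 and 0 to 1 for Kcnk6, and the last was too few to test.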

Other observations

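Chloride channels and calcium entry belong to the same membrane systems. Of 17 chloride and volume-regulated channel genes 15 were tested, 5 with a positive and 10 with a negative log2 fold change and a median of -0.074, and none passed an adjusted p of 0.05. Lrrc8a, the obligatory subunit of the volume-regulated anion channel, had a mean CPM of 29.9 ± 7.58 (SD, n = 5) for control and 20.1 ± 1.88 (SD, n = 4) for diabetic libraries (log2 fold change -0.57, edgeR quasi-likelihood adjusted p = 0.147). Its partner subunit gene Lrrc8b was at 41.7 ± 14.4 and 28.8 ± 4.17 CPM (log2 fold change -0.53, edgeR adjusted p = 0.249). Clcn3 was at 149 ± 39.0 and 108 ± 10.3 CPM, with all 4 diabetic libraries below all control libraries (log2 fold change -0.47, edgeR adjusted p = 0.171). Without control 4 and 6, the libraries high on the isolation response list, the log2 fold changes were -0.35 for Lrrc8a, -0.14 for Lrrc8b and -0.21 for Clcn3 (edgeR adjusted p = 0.366, 0.691 and 0.364). The controls that then remain were all below the diabetic libraries on that list. With that list as a covariate the log2 fold changes were larger in size, -0.59 for Lrrc8a, -0.56 for Lrrc8b and -0.49 for Clcn3. Their edgeR adjusted p-values were then 0.0214, 0.0297 and 0.0203, in a fit that called 1317 of all 11748 genes. The part of the isolation response in these values was not tested further. Ano10, of the anoctamin family, was at 1.61 ± 0.738 and 3.09 ± 0.667 CPM (log2 fold change 0.94, edgeR adjusted p = 0.217).

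Of 12 store-operated calcium entry genes 10 were tested, 3 with a positive and 7 with a negative log2 fold change and a median of -0.081, and none passed an adjusted p of 0.05. Calm2 spanned 82.9 to 123 CPM over the control libraries and 110.0 to 156 over the diabetic ones (log2 fold change 0.30, edgeR adjusted p = 0.264). Without diabetic 4 its log2 fold change was 0.16 (edgeR adjusted p = 0.574).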
